A study of Homo sapiens with 4 samples.

Results

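The genes described here are 9 members of the poly(ADP-ribose) polymerase (PARP) family, PARP1, PARP2, PARP3, PARP4, PARP8, PARP9, PARP10, PARP12 and PARP14, together with DTX3L, the ubiquitin ligase that pairs with PARP9. They were selected by symbol, and all 10 were found among the 28278 genes of the deposited table. RNA sequencing covered a CBX7 overexpression line (2 libraries) and a control line (2 libraries), both grown from A549, an epithelial line of human lung adenocarcinoma. Each line was made stable by lentiviral infection, with a CBX7 expression construct in one and a control construct in the other, so both carry a lentiviral insert. Cells were grown in Dulbecco's modified Eagle's medium with serum; no further treatment, promoter of the construct or clonal origin is given in the labels. Nothing says that the libraries of a line came from separate cultures, so each p-value reflects the variation among these libraries alone and that variation could be technical.

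PARP proteins use NAD to attach ADP-ribose to proteins. PARP1 and PARP2 are activated by broken DNA and build poly(ADP-ribose) chains that recruit repair factors, and PARP3 also responds to DNA breaks. Most of the remaining family members add single ADP-ribose units or lack activity of their own, and several of them (PARP9, PARP10, PARP12 and PARP14), with DTX3L, are known as interferon-induced genes with roles in antiviral defence. The break-responsive genes (PARP1 to PARP3) are called the repair class below, and PARP4, PARP8, PARP9, PARP10, PARP12, PARP14 and DTX3L the mono-ADP-ribosylating class. That class is a selected set, so its counts and median do not stand for every family member that adds single units. TIPARP, PARP6, PARP11 and PARP16, which also add single units, are described with the rest of the family.

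Library totals ranged from 69877585 to 90765502 estimated counts, and 17271 genes passed the filter on low counts. Levels are in CPM, counts scaled to library size and TMM factor, and are given as mean ± SD (n = 2). A gene was called when its adjusted p in the edgeR test was under 0.05. CBX7 rose to 18.1 ± 1.31 CPM with overexpression, against 8.37 ± 0.521 CPM in controls (log2 fold change 1.11, SE 0.156, adjusted p = 0.000141), and SOCS3, the gene in the series title, fell to 9.67 ± 2.04 CPM, against 42.3 ± 2.12 CPM. Of all tested genes 24.4% were called, 10.5% higher and 13.9% lower, or 1809 higher and 2399 lower; library totals in place of TMM turned that split to 2487 higher and 2033 lower. Epithelial keratins KRT8 and KRT18 were abundant in both lines, at 6649 ± 483 and 4720 ± 234 CPM with overexpression and 6904 ± 110 and 4701 ± 4.78 CPM in controls, while EPCAM (1.60 ± 0.0114 and 0.919 ± 0.380 CPM) and KRT19 (0.176 ± 0.143 and 0.278 ± 0.248 CPM) were scarce. The remaining markers fixed for A549, the aldo-keto reductases AKR1C1 and AKR1B10, were called higher, at 1428 ± 201 and 10775 ± 763 CPM with overexpression and 698 ± 102 and 7263 ± 1035 CPM in controls. Markers of other cell types were low: the 6 leukocyte markers summed to 3.47 to 4.08 CPM with overexpression and 5.95 to 7.49 CPM in controls, the 5 fibroblast markers to 7.64 to 8.47 and 5.27 to 7.90 CPM, and the 4 endothelial markers to 2.88 to 3.68 and 0.836 to 1.61 CPM. CD3E was at 0 in all 4 libraries. In the leukocyte list ITGAM was called lower and CD14 higher, and in the endothelial list CDH5 was called higher; the part of these markers in the results below was not tested.

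All 7 genes of the mono-ADP-ribosylating class were tested and fell with CBX7 overexpression, against 13.9% of all tested genes, 5 of them by 3 or more on the log2 scale, a fall that 1.66% of all tested genes reached. In the repair class PARP3 fell, and PARP1 and PARP2 were not called. None of the 10 genes was called higher by edgeR, DESeq2 or limma-voom, and 0 of them were higher at an unadjusted p under 0.05. The share called higher over all tested genes was 10.5% in edgeR. The class median log2 fold change was -3.99 for the mono-ADP-ribosylating class and 0.11 for the repair class, against a median of -0.00015 over all tested genes. The summed level of the mono-ADP-ribosylating class was 262 and 252 CPM in the overexpression libraries, against 2315 and 2170 CPM in the control libraries. That of the repair class was 339 and 341 CPM with overexpression, against 323 and 344 CPM in controls, and these ranges overlapped. Because these are bulk samples, fewer cells expressing a gene and less RNA per cell cannot be told apart.

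**Figure D1:**
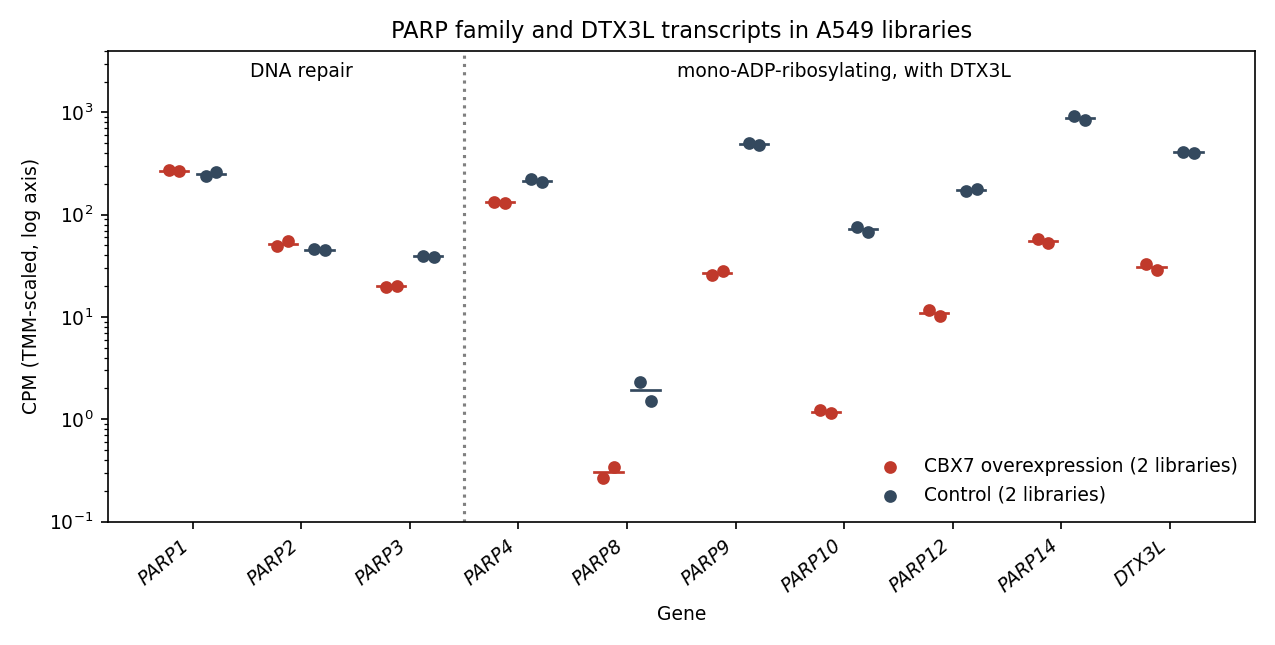
TMM-scaled CPM (log axis) of the 10 genes in each library, CBX7 overexpression (red) left of control (grey-blue); points are libraries and bars are group means (n = 2). PARP9, PARP10, PARP12, PARP14 and DTX3L sit more than 10-fold below control, while PARP1 and PARP2 sit close to it.

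PARP1, the main sensor of DNA strand breaks, was the most abundant repair gene, with 270 and 266 CPM in the overexpression libraries and 238 and 261 CPM in the control libraries. The groups did not overlap, as they did not for 62.8% of all tested genes, but the log2 fold change of 0.11 (95% interval -0.09 to 0.31, adjusted p = 0.466) was not called. PARP2, the second break-activated polymerase, had 49.1 and 54.9 CPM with overexpression and 46.0 and 45.3 CPM in controls. Its log2 fold change was 0.19 (95% interval -0.05 to 0.43, adjusted p = 0.258), so for both genes the interval leaves out a fall of the size seen in the other class. PARP3, which acts in the joining of broken DNA ends, was the 1 gene of its class to fall. It had 19.8 and 20.0 CPM with overexpression, against 39.6 and 38.6 CPM in controls, a 1.96-fold fall (log2 fold change -0.97, SE 0.119, adjusted p = 4.19e-05). Both overexpression libraries lay below both controls by far more than the replicates differed.

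PARP9 and DTX3L form a complex in which PARP9 binds ADP-ribose through macrodomains and DTX3L attaches ubiquitin. PARP9 had 25.6 and 28.2 CPM in the overexpression libraries, against 502 and 477 CPM in the control libraries, an 18.2-fold fall (log2 fold change -4.19, SE 0.107, adjusted p = 3.01e-12). DTX3L had 32.6 and 28.7 CPM with overexpression, against 413 and 399 CPM in controls, a 13.2-fold fall (log2 fold change -3.73, SE 0.108, adjusted p = 8.23e-12). The groups were widely separated for both partners. DTX3L fell by less than PARP9: there were 1.27 and 1.02 DTX3L counts per PARP9 count in the overexpression libraries, against 0.823 and 0.836 in the control libraries. These ratios did not overlap between groups, but the overexpression libraries differed from each other by more than the controls did, and 2 libraries against 2 cannot reach an exact permutation p under 0.05.

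PARP14, a large macrodomain protein and a coactivator of STAT6-dependent transcription, was the most abundant of the 10 genes in control cells. It had 57.3 and 52.9 CPM with overexpression, against 927 and 838 CPM in controls, a 16.02-fold fall (log2 fold change -4.00, SE 0.111, adjusted p = 5.66e-12). PARP12, a zinc-finger enzyme that restrains viral replication, had 11.6 and 10.3 CPM with overexpression, against 172 and 177 CPM in controls, a 15.9-fold fall (log2 fold change -3.99, SE 0.122, adjusted p = 1.29e-11). The falls of PARP14 and PARP12 could not be distinguished, since their ratio within a library overlapped between the groups.

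PARP10, another mono-ADP-ribosyltransferase, had the largest fall of the 10 genes. It had 115 and 104 counts in the overexpression libraries, against 6543 and 4636 counts in the control libraries. In CPM this was 1.23 and 1.15 with overexpression, against 76.0 and 68.0 in controls, a 60.4-fold fall (log2 fold change -5.92, SE 0.154, adjusted p = 3.59e-12). PARP10 held rank 159 of 17271 tested genes, counted from the largest fall. Its annotated span (chromosome 8, 143977158 to 144012764, GRCh38) overlaps that of GRINA by 3360 bases; GRINA, at 61.5 and 116 CPM on average in overexpression and control libraries, was called lower too, and reads of the shared stretch cannot be assigned without knowing how they were counted.

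PARP8 and PARP4 were the remaining genes of the class. PARP8, a little-studied enzyme, was scarce, with 25 and 31 counts in the overexpression libraries and 200 and 103 counts in the control libraries. Its 6.26-fold fall (log2 fold change -2.65, SE 0.492, adjusted p = 0.00144) had the widest 95% interval of the 10 genes, -3.70 to -1.59, and the controls differed from each other by more than those of any other member relative to their level. PARP4, the enzyme of the cytoplasmic vault particle, fell least in its class. It had 133 and 131 CPM with overexpression, against 222 and 209 CPM in controls, a 1.63-fold fall (log2 fold change -0.71, SE 0.0954, adjusted p = 0.000104). The groups did not overlap for either gene.

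**Figure D2:**
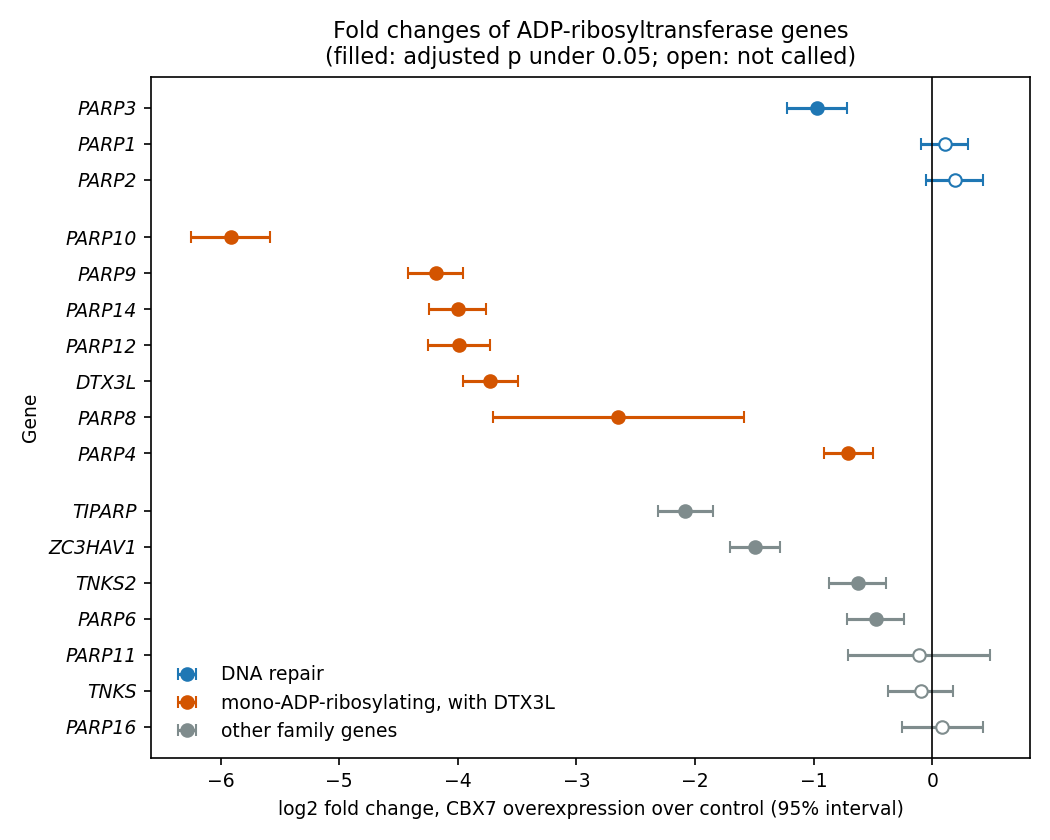
Log2 fold change of CBX7 overexpression over control with its 95% interval for the repair class, the mono-ADP-ribosylating class with DTX3L, and the 7 tested genes of the rest of the family; filled points passed an adjusted p of 0.05. PARP10 lies at -5.92, PARP9, PARP14, PARP12 and DTX3L lie between -4.19 and -3.73, and PARP1 and PARP2 have intervals that include 0.

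Ordered by fold change, the genes ran PARP10, PARP9, PARP14, PARP12, DTX3L, PARP8, PARP3, PARP4, PARP1 and PARP2. Between neighbours in this order the within-library ratio separated the groups except for PARP14 with PARP12 and PARP1 with PARP2; 2 libraries against 2 often separate, as they did in CPM for 62.8% of tested genes. PARP9 and PARP14 were barely separated, with log2 ratios of PARP14 to PARP9 of 1.16 and 0.91 with overexpression and 0.88 and 0.81 in controls, and the difference of the group means ran from 0.063 to 0.31 with 1 library left out. The order of levels also changed between the lines. Per kilobase of annotated exon sequence in GENCODE 29, overexpression libraries had the most PARP1 (37.4 ± 0.462 CPM per kb), then PARP4 (21.7 ± 0.290), PARP2 (12.7 ± 0.996), PARP3 (6.80 ± 0.0455), PARP14 (5.25 ± 0.290) and DTX3L (5.23 ± 0.470). Control libraries had the most PARP14 (84.1 ± 5.98 CPM per kb), then DTX3L (69.2 ± 1.71), PARP9 (54.8 ± 1.97), PARP4 (35.4 ± 1.54) and PARP1 (34.7 ± 2.27). PARP14 and DTX3L with overexpression, and PARP4 and PARP1 in controls, overlapped between libraries and have no order. PARP8 was lowest in both lines, at 0.0304 ± 0.0054 CPM per kb with overexpression and 0.190 ± 0.0571 in controls. Exon lengths include every annotated transcript, so a level per kb is approximate when cells use only some of them.

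PARP9, DTX3L and PARP14 lie side by side on chromosome 3, with PARP15 between DTX3L and PARP14. In GRCh38 coordinates PARP9 spans 122527924 to 122564784 on the minus strand, DTX3L 122564338 to 122575203 on the plus strand and PARP14 122680839 to 122730840 on the plus strand. PARP9 and DTX3L are divergent, and their annotated spans overlap by 447 bases, within which unstranded counting could not separate their reads. PARP15 had 0 counts in both overexpression libraries and 9 and 8 in the controls, too few to be tested. Of the 5 nearest tested genes on each side of the cluster, 4 had an unadjusted edgeR p under 0.05. The share of all tested genes under that threshold was at least 24.4%, since an adjusted p is never below its unadjusted p. None of these 10 flanking genes was called by edgeR, DESeq2 or limma-voom, against 24.4% of all tested genes called by edgeR. Their log2 fold changes ran from -0.62 (HSPBAP1, adjusted p = 0.0776) to 0.44 (LINC02035, adjusted p = 0.155). The nearest on the PARP9 side, the nuclear import factor KPNA1, had 99.8 ± 8.95 CPM with overexpression and 119 ± 8.83 CPM in controls (log2 fold change -0.26, adjusted p = 0.109).

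**Figure D3:**
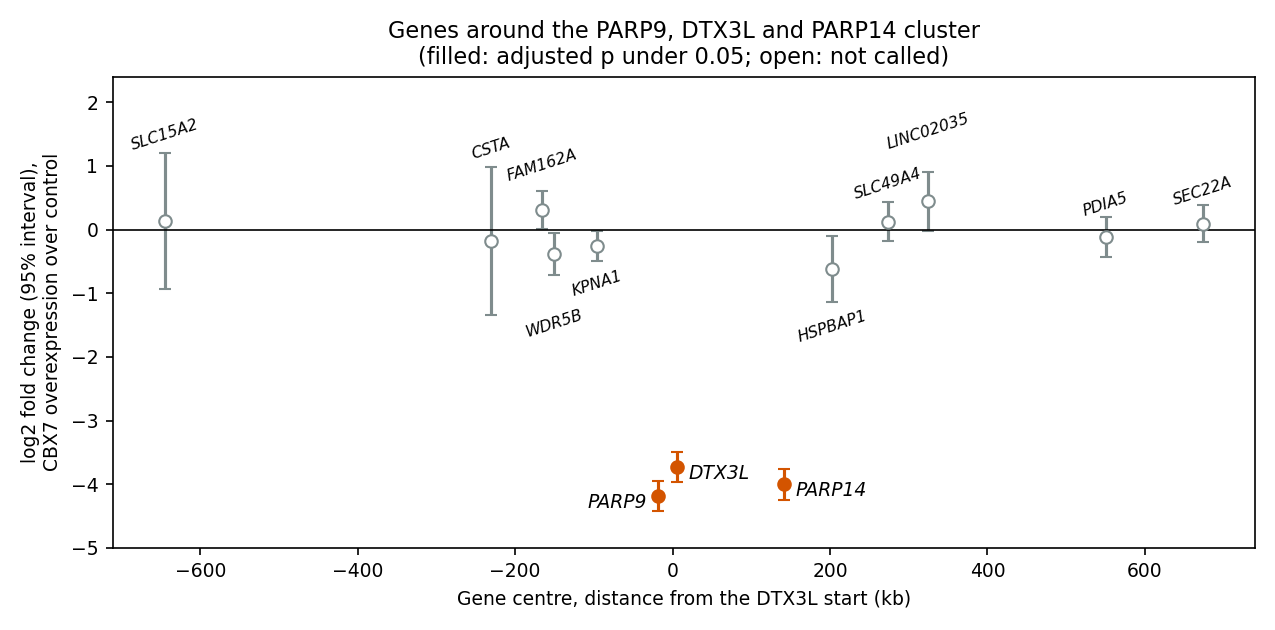
Log2 fold change of CBX7 overexpression over control (95% interval) against the distance of each gene's centre from the DTX3L start in kb; filled points passed an adjusted p of 0.05. PARP9, DTX3L and PARP14 lie between -4.19 and -3.73, and the 10 flanking genes lie between -0.62 and 0.44.

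Promoter windows of 300 bases, from 250 before to 50 after each annotated start, are shown for DTX3L, PARP9, PARP14 and PARP12, which fell by similar amounts, and for PARP1, which was not called. PARP9 has 2 annotated starts, and the window of the second is shown because it overlaps that of DTX3L. Sequences are from RefSeq, build GRCh38.p14. Windows were available for 8 of the 10 genes. The promoter set used had none for PARP4 or for PARP10, the gene with the largest fall, so their promoters were not analysed here. Each is written 5′ to 3′ on the gene's strand. Capitals mark GAAA, any 2 bases and GAAA, or on the other strand TTTC, any 2 bases and TTTC, the core of the interferon-stimulated response element (ISRE).
DTX3L, chr3:122564088-122564387, plus strand: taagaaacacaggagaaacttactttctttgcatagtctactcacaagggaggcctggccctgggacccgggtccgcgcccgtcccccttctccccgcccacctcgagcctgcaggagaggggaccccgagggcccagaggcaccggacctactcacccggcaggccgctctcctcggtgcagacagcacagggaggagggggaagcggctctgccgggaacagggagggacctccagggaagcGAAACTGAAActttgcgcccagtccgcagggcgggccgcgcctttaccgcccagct
PARP9, chr3:122564251-122564550, minus strand: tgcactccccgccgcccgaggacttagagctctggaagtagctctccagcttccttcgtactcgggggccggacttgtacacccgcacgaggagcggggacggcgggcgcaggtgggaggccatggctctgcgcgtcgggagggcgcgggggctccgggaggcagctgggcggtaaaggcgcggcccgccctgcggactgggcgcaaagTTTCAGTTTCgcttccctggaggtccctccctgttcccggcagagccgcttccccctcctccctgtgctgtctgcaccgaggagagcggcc
PARP14, chr3:122680589-122680888, plus strand: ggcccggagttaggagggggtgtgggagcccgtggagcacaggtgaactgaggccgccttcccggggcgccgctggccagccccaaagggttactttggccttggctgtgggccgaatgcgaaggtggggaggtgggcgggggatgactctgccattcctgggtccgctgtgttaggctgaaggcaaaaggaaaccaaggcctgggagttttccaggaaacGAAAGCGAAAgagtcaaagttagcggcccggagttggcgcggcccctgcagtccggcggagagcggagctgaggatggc
PARP12, chr7:140062902-140063201, minus strand: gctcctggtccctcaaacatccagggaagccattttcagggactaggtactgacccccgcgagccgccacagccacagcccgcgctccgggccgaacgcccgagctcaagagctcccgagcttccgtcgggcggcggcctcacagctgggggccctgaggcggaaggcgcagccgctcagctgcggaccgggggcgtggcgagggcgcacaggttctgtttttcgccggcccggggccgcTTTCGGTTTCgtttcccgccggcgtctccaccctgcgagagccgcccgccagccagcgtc
PARP1, chr1:226408044-226408343, minus strand: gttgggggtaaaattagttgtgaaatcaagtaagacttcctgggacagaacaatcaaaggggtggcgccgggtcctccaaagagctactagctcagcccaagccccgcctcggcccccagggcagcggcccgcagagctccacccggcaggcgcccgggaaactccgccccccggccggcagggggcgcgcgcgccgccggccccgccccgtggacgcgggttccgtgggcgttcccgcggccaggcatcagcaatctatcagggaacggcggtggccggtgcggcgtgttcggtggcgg

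ISRE letters were found in the windows of DTX3L, PARP9, PARP12 and PARP14, 4 of the 8 genes with a window, and in 4.24% of the 12759 tested genes with one; counted by window, they were in 3.57% of all 35116. With the annotated start counted as position 0, they lay at -6 to 3 for DTX3L (GAAACTGAAA), at -29 to -20 for PARP14 (GAAAGCGAAA) and at -10 to -1 for PARP12 (TTTCGGTTTC). In the second of the PARP9 windows they lay at -41 to -32 (TTTCAGTTTC), and the first had no match. The DTX3L and PARP9 matches are the same bases, chr3:122564332-122564341, read on opposite strands, so there were 3 separate sites. All 4 genes with the letters fell by 3.73 or more on the log2 scale, and the windows of PARP1 and PARP2, which were not called, and of PARP3 and PARP8, which fell, had no match. A second set of letters, TTCNNNGAA, the core of the STAT-binding GAS element, was found in the windows of PARP14 (TTCCAGGAA at -40 to -32, not overlapping the ISRE letters) and PARP2 (TTCCCAGAA at -154 to -146), and in 8.72% of the tested genes with a window (7.66% of all windows); it reads the same on both strands. A match describes the sequence only and does not show that a factor binds there.

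**Figure D4:**
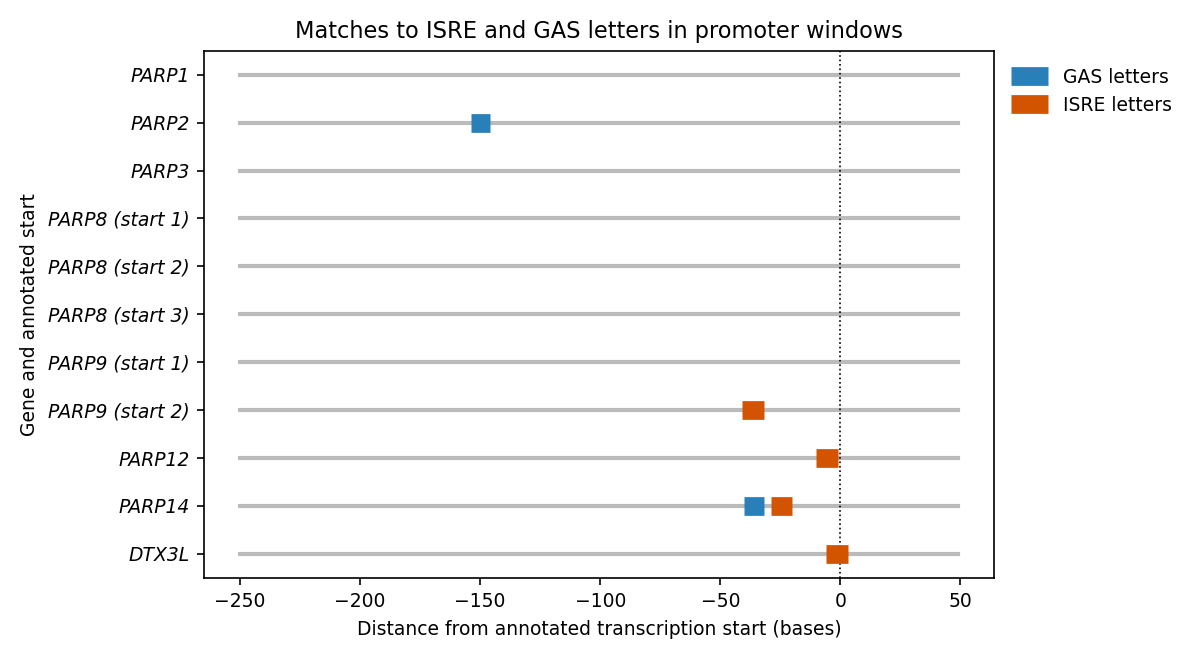
Positions of ISRE letters (orange) and GAS letters (blue) in the promoter windows of 8 genes, in bases from the annotated start; genes with several annotated starts have a line for each. The ISRE letters of DTX3L, PARP9, PARP12 and PARP14 all lie between -41 and 3.

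Genes with the most similar profile over the 4 libraries were found by the smallest Euclidean distance of log2 CPM after removal of each gene's mean. For PARP9 these were TNFAIP3 (distance 0.0754), PLAAT4 (0.0993) and RASGRP3 (0.140), for PARP14 they were MDK (0.120), PSMB9 (0.156) and NLRC5 (0.156), and for PARP1 they were GET3 (0.00837), PAN2 (0.00971) and C17orf75 (0.0109). Within the 10, PARP12 lay at 0.135 from PARP14, nearer than PSMB9 and NLRC5. PARP9 and PARP1 had no such gene nearer than those named. With 4 libraries the distance mainly reflects the difference between the lines.

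The rest of the family was mixed. Of 7 tested genes among PARP6, PARP11, PARP16, ZC3HAV1, TIPARP, TNKS and TNKS2, 4 fell, with a median log2 fold change of -0.48. None rose (0 by edgeR, also at an unadjusted p under 0.05, and 0 by DESeq2 and limma-voom). Over all tested genes 13.9% were called lower and 10.5% higher by edgeR. TIPARP (PARP7), a mono-ADP-ribosyltransferase that represses the aryl hydrocarbon receptor, fell to 49.8 ± 0.161 CPM, against 211 ± 18.1 CPM in controls (log2 fold change -2.08, adjusted p = 4.27e-09). ZC3HAV1 (PARP13, the antiviral protein ZAP, which lacks enzyme activity) fell to 110.0 ± 1.32 CPM, against 310.1 ± 24.7 CPM (log2 fold change -1.50, adjusted p = 6.52e-08). Both fold changes were smaller than those of PARP9, PARP10, PARP12, PARP14 and DTX3L; the difference was not tested. The tankyrase TNKS2 and PARP6 were also lower (log2 fold change -0.63, adjusted p = 0.00099, and -0.48, adjusted p = 0.00728); PARP6 was not called without CBX7 library 2 (adjusted p = 0.105). PARP11, PARP16 and TNKS were not called, with log2 fold changes of -0.11, 0.09 and -0.10.

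Among 11 genes that remove or read ADP-ribose, ADPRS fell, MACROD1 rose and 9 were not called (median log2 fold change 0.17); 2 of 11 is no more than the 24.4% called over all tested genes. ADPRS (ARH3), the hydrolase that frees serines from ADP-ribose, was at 18.3 ± 0.217 CPM with overexpression and 43.5 ± 5.51 CPM in controls (log2 fold change -1.25, adjusted p = 8.30e-06). MACROD1, a macrodomain hydrolase, was at 7.84 ± 0.801 CPM with overexpression and 3.79 ± 0.0451 CPM in controls (log2 fold change 1.05, adjusted p = 0.0031). NUDT16 and OARD1, with log2 fold changes of 0.26 and 0.25, were not called (adjusted p of 0.134 and 0.154). PARG, which degrades poly(ADP-ribose) chains, was at 48.6 ± 5.38 and 51.2 ± 4.18 CPM (adjusted p = 0.728).

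Among 10 genes of the PARP1 cofactor and single-strand break repair list, the scaffold XRCC1 rose and the ADP-ribose-binding factor APLF fell (log2 fold change 0.38, adjusted p = 0.0436, and -0.80, adjusted p = 0.0358), and 8 were not called. Neither call was stable to leaving out a library: XRCC1 lost it without control library 1 (adjusted p = 0.196), CBX7 library 1 (0.0699) or CBX7 library 2 (0.305), and APLF without control library 2 (0.219) or CBX7 library 1 (0.254). TDP1, which cleans DNA ends, was not called (log2 fold change 0.29, adjusted p = 0.124), and HPF1, the cofactor that directs PARP1 to serine, was at 28.0 ± 1.54 and 28.7 ± 0.168 CPM. Among 8 end-joining genes, the kinase PRKDC rose to 751 ± 58.4 CPM, against 485 ± 44.9 CPM in controls (log2 fold change 0.63, adjusted p = 0.000541), and the nuclease DCLRE1C (Artemis) fell to 15.6 ± 1.04 CPM, against 25.9 ± 4.31 CPM (log2 fold change -0.74, adjusted p = 0.00268). LIG4 and TP53BP1 were not called (log2 fold changes -0.54 and -0.19, adjusted p of 0.0528 and 0.215), but LIG4 was called lower without control library 2 (0.00785) or CBX7 library 2 (0.0218). Among 8 homologous recombination genes PALB2, the partner of BRCA2, was the 1 called with all 4 libraries in edgeR, with a log2 fold change of -0.50 (adjusted p = 0.0074), and not without CBX7 library 1 (adjusted p = 0.0979). BRCA2 and ATR were not called, with log2 fold changes of -0.51 and -0.12 and adjusted p of 0.0547 and 0.547, but BRCA2 was called lower without control library 2 (0.0229) or CBX7 library 1 (0.00383) and with the replicate block (0.00317). The medians of these 3 lists were 0.054, -0.067 and -0.089, and 2 of 10, 2 of 8 and 1 of 8 genes were called, against 24.4% of all tested genes.

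NAD is the substrate of every PARP enzyme. Of 8 genes of NAD supply, NAMPT and NAPRT fell and 6 were not called (median log2 fold change -0.19); 2 of 8 is close to the 24.4% called over all tested genes. NAMPT, the rate-limiting enzyme of the salvage route, was at 240.1 ± 3.33 CPM with overexpression and 434 ± 86.3 CPM in controls (log2 fold change -0.85, adjusted p = 0.000168). NAPRT, at 4.38 ± 1.26 and 7.85 ± 0.407 CPM (adjusted p = 0.0194), was not called without control library 1 (adjusted p = 0.0918), control library 2 (0.0673) or CBX7 library 2 (0.239). The NAD synthesis gene QPRT, at 0.429 ± 0.0887 CPM with overexpression and 0.128 ± 0.181 CPM in controls, was not called with all 4 libraries (adjusted p = 0.371). It was called higher without control library 1, but that call rests on the remaining control, which had 0 counts. Such a 0 may be a failed estimate. NMNAT2 and NMRK1 were not called (log2 fold changes -0.69 and -0.34, adjusted p of 0.0632 and 0.233). NMNAT2 was called lower with a filter on a mean count of at least 50 (adjusted p = 0.0274). Without CBX7 library 2 its log2 fold change was -0.97. Against 24.4% of all tested genes called by edgeR, none of the 3 tested relatives of DTX3L in the deltex family, DTX2, DTX3 and DTX4, was called. DESeq2 and limma-voom called none of the 3 either, and 0 had an unadjusted edgeR p under 0.05. Their log2 fold changes ran from 0.05 to 0.37, and DTX1 was too scarce to be tested.

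Genes of interferon signalling were lower in the same libraries. Of 9 tested genes, 6 fell and 3 were not called (median log2 fold change -2.54), against 13.9% of all tested genes called lower. STAT2 was at 17.3 ± 2.38 CPM with overexpression and 205 ± 7.98 CPM in controls, a log2 fold change of -3.57. IRF1 and IRF7, transcription factors of the response, had log2 fold changes of -4.08 and -5.17. The receptor gene IFNAR1 was at 50.6 ± 0.665 and 51.2 ± 1.68 CPM (adjusted p = 0.931). The part of these genes in the falls of the PARP genes was not tested.

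**Figure D5:**
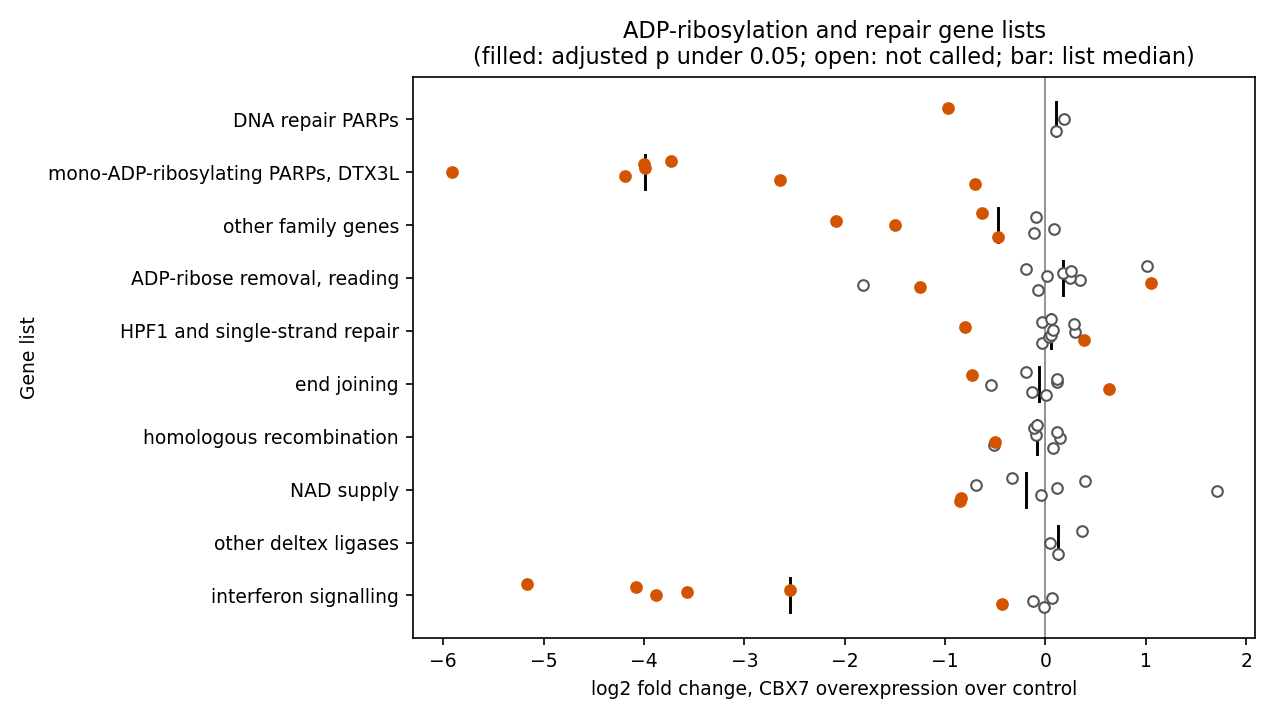
Log2 fold change of CBX7 overexpression over control for each tested gene, by list; filled points passed an adjusted p of 0.05 and bars are list medians. The medians of the mono-ADP-ribosylating class (-3.99) and interferon signalling (-2.54) lie far to the left. Those of the repair class, the repair lists and the NAD list run from -0.19 to 0.11. Single genes depart from their list median, such as PARP4 at -0.71 and QPRT at 1.70.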

How the data were processed

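RNA sequencing gave 1 deposited table of estimated counts per gene symbol for 4 libraries, whole numbers that were not scaled to depth. StringTie 2.2.1, HISAT2 2.2.1, DESeq2 and build hg38 are named, with no roles, per the submitters' processing notes. Strandedness, gene annotation and the handling of shared reads: not given in the sources used here. A listed 0 in the authors' estimated counts may be a failed estimate. Counts were tested with edgeR 4.0.16 in R 4.3.3 (filterByExpr, TMM, robust quasi-likelihood fit, group as the only term, all 4 libraries) with Benjamini-Hochberg adjustment over all tested genes; this gives every adjusted p. Standard errors came from the fold change and its F statistic. DESeq2 1.42.0, limma-voom (limma 3.58.1), other scalings and filters, a replicate block and leaving out each library were tried, and the models were tested on simulated data. Replicates differed by more than counting noise. Gene positions and promoters came from RefSeq (GRCh38.p14). The 10 genes and the lists were chosen with earlier results of these data known. In each list the text names up to 4 genes with the smallest p, some of which are not reported here, and others such as PARG, HPF1, QPRT, IFNAR1, CD14, ITGAM, CDH5 and GRINA were chosen after their values were seen. Lists are described by counts and medians, with no test over a list.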

Additional observations from a re-analysis of the deposited data

How the results depend on the processing

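All 10 genes kept their direction and their side of the threshold in each of the 11 alternatives (other scalings, DESeq2, limma-voom, 2 other filters, a replicate block and leaving out each library). The highest adjusted p among the 8 called genes was 0.0294, for PARP8, whose log2 fold change ran from -2.91 to -2.30. All 7 genes of the mono-ADP-ribosylating class and PARP3 alone in the repair class were lower throughout. With library totals in place of TMM the class medians were -3.92 and 0.17. With 1 library left out the median of the mono-ADP-ribosylating class ran from -4.06 to -3.90, that of the repair class from 0.043 to 0.18 and the difference between them from -4.15 to -3.97. The number of genes called higher ran from 1021 without CBX7 library 1 and 1121 without CBX7 library 2 to 1790, and of those called lower from 1689 to 2134. Same-numbered replicates did not deviate together (r = 0.013 across all tested genes and 0.091 across those with a mean count of 50 or more), so the numbers were not taken as pairs; the replicate block gave 2100 higher and 2503 lower genes and changed no call among the 10. LIG4 and BRCA2, not called in the report, were called lower with DESeq2 (adjusted p of 0.0391 and 0.0212) and with the stricter count filter. NMNAT2 was called lower with the stricter count filter too. IRF9 was not called without control library 1 (adjusted p = 0.0502), nor was IFNAR2 without CBX7 library 1 (0.0798) or 2 (0.107). Only 2 libraries per group limit the precision of every interval, and PARP8 and PARP15 are limited by their counts.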
